A study of Mus musculus with 2 samples.

Results

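A set of 209 long intergenic noncoding RNA (lincRNA) genes of the mouse gave between 200 and 20000 small RNA reads of 24 to 32 nt, the length range of PIWI-interacting RNAs (piRNAs), in the testis. They were chosen as GENCODE M21 genes of type lincRNA whose reads, summed over both deposited tables, fell within these limits, with AA474408 and Gm15564 left out. Those named exceptions made no difference here, since the annotation gives them other types and both had over 20000 reads. Of 5854 lincRNA genes in the annotation 2939 had any such read, 2701 of them under 200 reads and 29 over 20000, and among genes of all types 4552 had at least 200. The 209 genes took 356220 reads, 178613 KO-named and 177607 het-named, which was 0.395% of all reads of 24 to 32 nt. The number of reads chose the genes and is therefore only described: just inside the limits stood Gm30371 with 200.1, Gm11851 with 200.5 and Gm34788 with 201.2 reads at the low end, and Gm10845 with 19608 at the high end. Just outside stood Gm31392 with 197.3, Zfp469 with 197 and Gm28625 with 196.8 reads, and Gm26917 with 23152 and 4933404O12Rik with 25218.5 reads.

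The labels describe RNA of whole testes of C57BL/6 mice at 23 days post partum (dpp), 1 sample homozygous (Stambp-ps1-/-) and 1 heterozygous (Stambp-ps1+/-) for a mutation of the pseudogene Stambp-ps1, with no number of animals stated. In the record both tables belong to the Stambp-ps1-/- sample, although 1 carries KO and the other het in its name. They are therefore told apart as KO-named and het-named, without a genotype. There were 54384974 KO-named reads (6895028 distinct sequences) and 62773871 het-named reads (7489485 distinct sequences). With 1 library per table there was no replicate and no test was possible. The 95% intervals of single genes hold counting error alone. They take each read as a separate count, although PCR copies were not marked by molecular identifiers. The 95% intervals of medians hold the spread over genes and take the genes as separate. As many genes share reads, those intervals may be too narrow.

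piRNAs are the small RNAs of the animal germ line that guide PIWI proteins, and in the mouse testis they are cut from long single-stranded precursor RNAs, many of them noncoding transcripts of intergenic clusters. They usually begin with uridine (U). Those bound by MILI are shorter than those bound by MIWI, and when 2 PIWI proteins cut each other's targets, reads of opposite strands overlap at their 5′ ends by 10 nt, the ping-pong mark.

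The most frequent reads of the genes on which the results turn are printed first, 5′ to 3′ as the tables give them with T for U. The capital marks the first base. Positions are on GRCm38, matched to GENCODE M21 transcripts, and a place means a distinct start position among those annotated transcripts only. The first set stands for genes whose reads had 1 place and the strand of the gene, and each shows the first T.
Gm36617: Tgaaagatgtcaacctgagctgaagcc
AY702103: Tagaaggacaatgtgacttccctatgcacc
Gm31181: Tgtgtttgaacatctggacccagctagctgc
4933406P04Rik: Tgtcaagtaggtgagctgtatttacatga
4930463O16Rik: Tgataacagtgtagcactccagttgacc
AU020206: Tcctctagtttccaggactgtgggcct
The read of Gm36617, at chr15:59275421-59275447 on the plus strand, had 859 KO-named and 758 het-named counts and made up 17.7% of the reads of its gene. The read of AY702103, at chr17:50240756-50240785 on the plus strand, had 267 KO-named and 293 het-named counts, 6.53% of the gene. The read of Gm31181, at chr10:66705014-66705044 on the plus strand, had 1005 KO-named and 1071 het-named counts, 25.5% of the gene. Those of 4933406P04Rik at chr10:20311429-20311457 (minus strand), 4930463O16Rik at chr10:84488519-84488546 (plus strand) and AU020206 at chr7:75770315-75770341 (minus strand) held 4.68%, 9.86% and 5.50% of their genes.

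The next set lay on the strand opposite to the lincRNA, with 1 place each, and is shown because these reads also begin with T, although they lie on the other strand from the annotated lincRNA.
Gm8110: Taggatattttgacacctgtgaatcataac
C130083M11Rik: Ttagagaacctagaaccacaatcccagg
Gm26649: Taagaaagacttggctgaaataaattc
The Gm8110 read, at chr8:28521969-28521998 on the minus strand, had 441 KO-named and 416 het-named counts. The C130083M11Rik read, at chr5:52200269-52200296 on the plus strand, had 54 KO-named and 32 het-named counts, and the Gm26649 read, at chr1:64031242-64031268 on the minus strand, had 13 KO-named and 12 het-named counts.

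The last set did not begin with T, or came from a microRNA (miRNA) gene inside the lincRNA, and is shown because these reads differ from the others in first base, length or number of starts.
Rmrp: Agctcgctctgaaggcctgtttcctaggct
Gm34237: Gcaactgctagatccttggacttctattca
Gm32856: Aggataaatagaactctaaaagag
Gm20043: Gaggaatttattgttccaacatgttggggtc
Gm27028: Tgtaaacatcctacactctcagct
Mir17hg: Caaagtgcttacagtgcaggtagt
The Rmrp read, at chr4:43493030-43493059 on the minus strand, had 3768 KO-named and 2830 het-named counts and made up 76.6% of its gene. Those of Gm34237 (chr12:11826816-11826845), Gm32856 (chr8:129270856-129270879) and Gm20043 (chr13:15406515-15406545), all on the plus strand, made up 36.4%, 42.3% and 52.1% of their genes. The 24 nt read of Gm27028, at chr1:23291714-23291737 on the plus strand, overlapped the gene Mir30c-2 and made up 99.7% of the reads, with a second place elsewhere. That of Mir17hg, at chr14:115043684-115043707 on the plus strand, was 48.4% of its gene.

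The genes were of several kinds. A 1-place read is one that matched a single place, and a gene may have many such reads at different starts. There were 41 genes with at least 90% of reads of this sort and at least 90% on the strand of the gene (sense). In 34 of these at least 70% of reads also began with U. There were 12 genes with 1-place reads that were at least 90% antisense and 2 with 1-place reads on both strands. In 88 genes at most 10% of reads had 1 place, and 56 genes lay between. A further 10 genes, kept apart from these kinds, held an annotated miRNA, small nucleolar RNA (snoRNA), small nuclear RNA or other small RNA gene in their exons. Genes of type ribozyme were not counted as small RNA genes. Such an entry, also named Rmrp, overlaps the lincRNA Rmrp on the same strand, with 3.78% of its reads at places of that entry. The 88 genes with reads of several places held 40.3% of all reads of the set, 71671.6 KO-named and 72049.9 het-named (each read shared 1 over its places). The 34 sense, U-led genes held 20.6%, with 36569 KO-named and 36733 het-named reads.

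Reads of several places were commoner in these genes than over all genes. At most 10% of reads had 1 place in 91 of 209 genes (43.5%), against 15.7% of the 4552 genes of any type with at least 200 reads, and in none of the 29 lincRNA genes with over 20000 reads. At least 90% of reads had 1 place in 59 genes (28.2%), against 54.9% of all genes and in all 29 of the larger lincRNA sources. The median share of 1-place reads was 22.7% in the 209 genes and 93.7% over all genes.

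The strand was divided as well when all reads were counted. At least 90% of reads were sense in 90 genes (43.1%), against 67.3% of all genes, and 27 of the 29 larger lincRNA sources were sense by the same measure. At least 90% were antisense in 36 genes (17.2%), against 5.51% of all genes. The median sense share was 76.5% (95% interval of the median over genes 65.2 to 90.4) in the set and 97.8% over all genes. With reads of 1 place alone the median was 98.7% (96.9 to 99.4) over the 94 genes left. Both the reads and the genes changed in this count, so what lowers the median of the set was not tested. Strand hardly moved between the tables: in the 76 genes with at least 1000 reads the sense share of each gene differed between the tables by a median of 0.451 points, and by under 5 points in all 76.

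**Figure D1:**
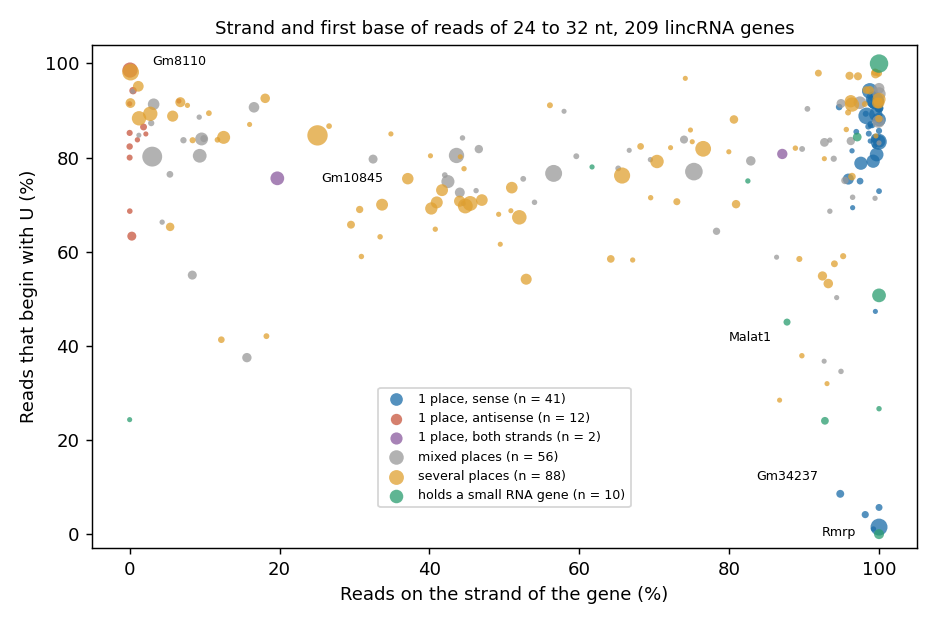
Share of reads on the strand of the gene (x axis, %) against share of reads that begin with U (y axis, %), 1 point per gene over both tables, with larger points for more reads and colours for the kinds of gene. Most 1-place genes stand at the left or right edge with a first-U share above 70%, the genes with several places spread over the whole strand range, and 19 of 209 genes fall under 50%.

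The first base was U in most genes. At least 70% of reads began with U in 159 of 209 genes (76.1%), against 79.6% of all genes, so this share was close to the background. The median first-U share was 81.8% (79.8 to 83.7), against 80.3% over all genes and 88.4% in the 29 larger lincRNA sources. It was 86.8% in the 34 sense, U-led genes (chosen by this share), 85.1% in the 12 antisense genes, of which 10 reached 70%, and 81.6% in the 88 genes with several places.

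Among single genes, Gm36617 had 4580 KO-named and 4554 het-named reads, of which 92.4% (KO-named) and 92.2% (het-named) began with U. AY702103 had 4210 KO-named and 4365 het-named reads, with 92.1% first U among KO-named and 91.9% among het-named reads. 4933406P04Rik, a single-exon gene whose annotated start lies 175 nt from the start of the opposite-strand coding gene Bclaf1, had 3470 KO-named and 3577 het-named reads with 83.4% first U in KO-named and 83.3% in het-named reads. These shares differed between the tables by less than 1 point. Over the 76 genes with at least 1000 reads the difference in first-U share had a median size of 0.636 points, and it was under 5 points in 75.

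A first-U share under 50% was found in 19 genes (9.09%), against 6.63% of all genes. Of these, 5 held a small RNA gene and 6 were 1-place sense genes. Rmrp, which encodes the RNA subunit of the nuclear RNase MRP, stood out by amount: 4882 KO-named and 3737 het-named reads, 1.497% with first U (1.25 to 1.78) and 95.9% at 1 start near its 5′ end. At this start 79.8% of reads were of 30 nt. Gm34237 had 400.0 KO-named and 416.3 het-named reads with 8.56% first U, and 81.5% of them at 1 start. Gm32856 had 340.4 KO-named and 302.5 het-named reads with 4.15% first U, and 93.0% at 1 start. Gm20043 had 151.1 KO-named and 144.6 het-named reads with 1.08% first U, and Epb41l4aos had 326 KO-named and 274 het-named reads with 5.67%. These 5 low-U genes also placed most of their reads at a single start, which was not general among the 19. Of the 19 genes, 6 had at least 50% of reads at 1 start, and the median share at the main start was 32.7%. Snhg6, a snoRNA host gene, had 115 KO-named and 90 het-named reads with 47.3% first U and 12.7% at its main start.

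Reads of 29 to 31 nt were commoner than those of 26 to 28 nt in most genes of the set. The 26 to 28 nt class was the larger in 79 genes (37.8%), against 65.9% of all genes and 9 of the 29 larger lincRNA sources. The median share of 26 to 28 nt among reads of 26 to 31 nt was 43.3% (40.6 to 47.0) in the set, 58.4% over all genes and 40.6% in the larger lincRNA sources. By kind it was 48.2% in the 34 sense, U-led genes, 66.1% in the 12 antisense genes and 40.7% in the 88 genes with several places. Of the antisense genes 10 of 12 had more reads of 26 to 28 nt.

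Read length differed widely between single genes. The 26 to 28 nt share was 75.4% in Gm36617, 75.3% in AU020206 and 67.1% in 4930463O16Rik, and 26.8% in AY702103, 24.3% in Gm31181 and 15.98% in Gm13817. At the main start of Gm36617 41.1% of reads were of 27 nt and 24.7% of 26 nt, with a second group of 10.4% at 30 nt. At the main start of Gm31181 65.7% were of 31 nt. Among sense, U-led genes the share ran between 8.89% in Gm29927 and 78.9% in Gm49654. In the whole set the lowest shares were 0.632% in Gm20043, 1.29% in Rmrp and 4.71% in Gm33533, and the highest 100% in Gm27028 (of the few reads over 25 nt beside its 24 nt miRNA), 94.2% in Gm40773 and 92.2% in Gm32856. The share was slightly larger in the KO-named table: it was higher there in 149 genes and in the het-named table in 59, by a median of 1.33 points. In genes with at least 1000 reads it was higher in the KO-named table in 52 and in the het-named table in 23, by a median of 0.962 points. Neither count was made over all genes, so the counts do not set these genes apart.

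**Figure D2:**
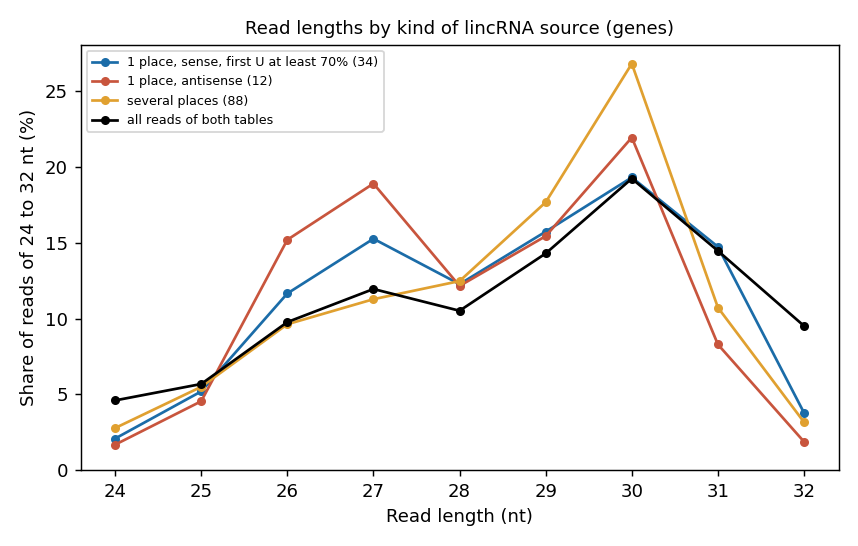
Share of reads of 24 to 32 nt at each length (y axis, %) by read length (x axis, nt) for 3 kinds of gene, reads summed within each, and for all reads of both tables. All curves peak at 30 nt, at 26.8% in the genes with several places, and at 27 nt the antisense genes are highest at 18.9%. Gm8110, with 30 nt as its most frequent length, held 5607 of the 10680 reads of the 12 antisense genes.

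The most frequent start held a median of 20.3% (17.7 to 21.8) of a gene's reads in the set, 12.7% over all genes and 8.41% in the 29 larger lincRNA sources. It held at least 50% in 28 genes (13.4%), against 9.16% of all genes. As shares at 1 start depend on depth, starts were also counted as the number expected among 100 reads of 1 place, which could be had for 111 genes of the set and was not computed for the larger sources or for all genes. The median was 39.2 starts (31.1 to 44.3) per 100 reads, and 52.9 in the 34 sense, U-led genes.

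The sense, U-led genes mostly had reads along much of the transcript, though not in equal number. Reads fell in a median of 80.5% of the 50 nt bins along their exons. AY702103 had 643 starts, the largest with 8.05% of reads, and 50.1 starts were expected among 100 reads, while 83.2% of its reads lay in the 5′-most of 3 equal parts of the exons. 4933406P04Rik had 481 starts, the largest with 6.20%, and reads in 94.4% of its bins, with 63.6% of reads in the middle part. AU020206 had reads in 98.4% of bins, with 58.3 starts expected among 100 reads. Other genes of this kind had few starts. The main start held 82.4% of reads in Gm29927, 67.5% in Gm44748 and 56.1% in Gm13817, and 10 starts held 95.6% of the reads of Gm13817, against 40.5% in 4933406P04Rik. Gm36617 was between, with 43.0% at its main start and 84.2% at 10 starts.

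**Figure D3:**
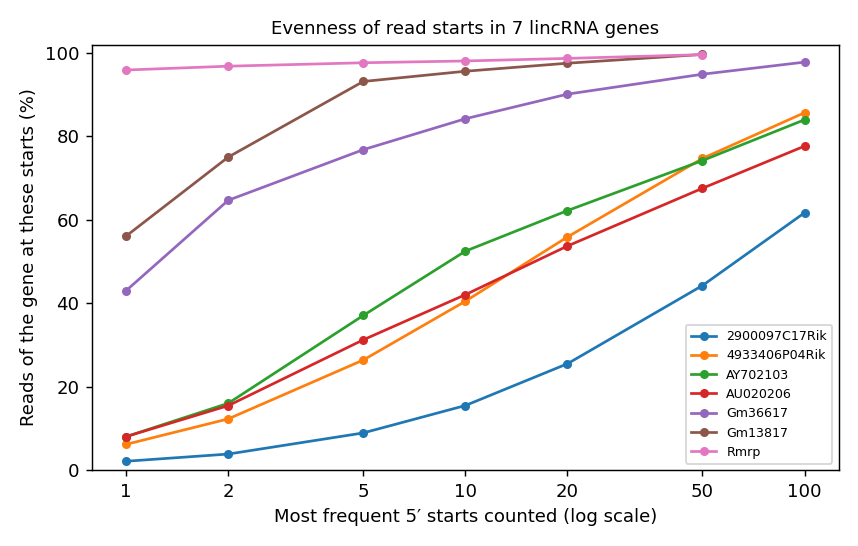
Cumulative share of a gene's reads (y axis, %) at its most frequent 5′ starts (x axis, log scale) for 7 lincRNA genes. In 2900097C17Rik the 10 most frequent starts held 15.5% of reads and in Rmrp 98.1%.

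Some genes with reads of several places shared them with one another. In 88 of the 209 genes at least 75% of reads also matched another gene of any type, at a different place or overlapping at the same place. These are not the same 88 genes as those with reads of several places. They include 1-place genes such as Gm26649, all of whose reads also lay at Klf7. The share over all genes was not computed. Pairs that shared at least 75% of reads both ways linked 19 genes into 8 families, in 2 of which 1 pair shared less: Gm48422 shared 68.8% with Gm48492, and Gm14149 shared 71.9% with Gm13632. Gm48799 and Gm48764, on different chromosomes with exons of 3661 and 3666 nt, shared 5841 distinct sequences that held 79.2% of their reads. Their reads lay on both strands (45.4% and 44.8% sense) with 70.3% and 69.7% first U. Gm48422, AC153131.1 and Gm48492, on 3 chromosomes with exons of 2705 or 2706 nt, shared 4181 sequences and were 40.3 to 47.0% sense. Gm13667 and Gm29455 shared 88 sequences that held 99.6% of their reads, nearly all sense, with 91.6% first U in both. Since a shared read cannot be given to a copy, values of such genes describe the family and not separate sources.

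The most abundant gene of the set, Gm10845, had 10022 KO-named and 9585 het-named reads, 25.1% of them sense and 6.32% with 1 place. Gm49795, the next, had 9234 KO-named and 8319 het-named reads. The 2 genes are not separate sources of all these reads. Of the reads of Gm10845 51.1% also matched Gm49795, and of those of Gm49795 45.6% also matched Gm10845. Gm49795 lies on the minus strand beside and partly over Gm49794, the lincRNA source with the most reads. Of the reads of Gm49795 49.3% lay at places of Gm49794, and 3.01% were sense. Gm49263 had 4289.9 KO-named and 3923 het-named reads, 0.127% sense and 97.6% at 1 start, none with 1 place.

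The 10 nt overlap between strands was counted where both strands had reads. In 85 genes there were at least 100 overlapping pairs of 1 to 20 nt (each pair counted by its rarer read), and in 83 of them 10 nt was above the even share of 5%. In 73 of the 85 it lay over 2 standard deviations above the mean of the other overlaps, and neither count was made over all genes. Of the 85, 49 were genes with reads of several places and 27 lay between these and the 1-place genes. Many such genes share reads, so the 85 are not separate observations. In Gm48799 it held 10.8% of pairs, against 3.79% at 9 nt and 4.13% at 11 nt. It held 12.4% in Gm48422 and 12.6% in Gm45322. Where reads have several places, the strands may belong to different copies. In M5C1000I18Rik 98.9% of reads matched a single place, and 10 nt held 12.1% of its pairs. It is a single-exon gene with 1941.5 KO-named and 1976 het-named reads, 19.7% sense. Adenine at position 10, the other mark of such cutting, was found in a median of 51.6% of reads in the 88 genes with several places and 30.4% in the 34 sense, U-led genes. The share over all genes was not computed. In some genes 1 start sets it: it was 99.2% in Gm33533 and 0.373% in Gm49263, with 97.0% and 97.6% of reads at 1 start.

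**Figure D4:**
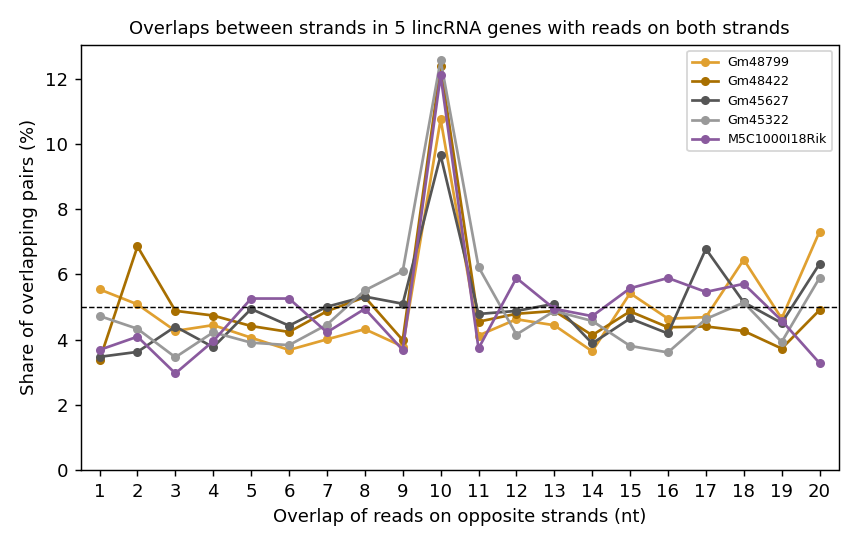
Share of overlapping read pairs on opposite strands (y axis, %) at each overlap of their 5′ ends (x axis, nt) in 5 lincRNA genes with reads on both strands, with the even share of 5% as a dashed line. The overlap of 10 nt is the highest in all 5, between 9.65% in Gm45627 and 12.6% in Gm45322. The 5 are not separate observations: 75.1% of the reads of Gm48422 also matched Gm48799, and 44.3% of those of Gm45627 also matched Gm45322.

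Some of the antisense genes lay opposite a coding gene, and the share over other lincRNA genes was not computed. Of the 12, Gm26649, Gm26790, Gm26675 and 2810425M01Rik had 98.2 to 100% of their reads in the 3′UTR of Klf7, Zfp507, Zfp597 and Fam207a on the other strand, where the reads are sense. In 4732487G21Rik the share in the 3′UTR of Gpatch2l was 56.3%. 7530414M10Rik had all its reads at places of Gm49463, a noncoding gene on the other strand. Gm26635 lay opposite Hic2, a transcription factor gene, with 48.6% of its reads in the coding sequence and 13.4% in the 5′UTR. Klf7, a Krüppel-like transcription factor gene, had 501 reads in each table in all, 253 KO-named and 240 het-named of them at Gm26649. In the antisense genes Gm26649 and Gm26635 the 26 to 28 nt share was 78.8% and 77.4%. As the reads could be placed on the transcript of either gene and the libraries were directional, in these genes they had the strand of the coding RNA.

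For Gm8110, C130083M11Rik, Gm34060, Gm13814 and Gm27042 no coding gene held 10% or more of the reads. Gm8110 had 2888 KO-named and 2719 het-named reads, 0.0535% of them sense, with 98.6% first U and 39.3% at 1 start. C130083M11Rik had 373.5 KO-named and 342.8 het-named reads with 94.2% first U. Gm13814, with 311 KO-named and 282 het-named reads and 1.85% sense, lies on the plus strand beside Gm13817, a sense gene on the minus strand with 1766 KO-named and 1616 het-named reads, so the reads of both genes were on the minus strand of chromosome 2.

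Of the 10 genes that hold small RNA genes, 3 had their main read at a miRNA gene. Gm27028 had 6211 KO-named and 6188.5 het-named reads, 99.95% at the start of its 24 nt read, and 2636 KO-named and 2789 het-named reads of 18 to 23 nt. Mir17hg, the host gene of Mir17, Mir18, Mir19a, Mir20a, Mir19b-1 and Mir92-1, had 2045.5 KO-named and 1852 het-named reads of 24 to 32 nt against 51111.5 KO-named and 49517 het-named reads of 18 to 23 nt. A430106G13Rik, which holds Mir181a-1 and Mir181b-1, had 770.5 KO-named and 709 het-named reads, none with first U. Neat1, the RNA on which paraspeckles are built, differed from these, with 520.1 KO-named and 522.6 het-named reads, 84.4% first U (82.0 to 86.5), 97.1% sense and 22.2% at its main start. Malat1, a nuclear speckle RNA, had 45.0% first U (41.1 to 49.1) and 92.4 starts expected among 100 reads, the highest number among the genes named here.

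Between the tables the genes stayed close together. With values in reads per 1000000 reads of the table (RPM), the median log2 ratio (KO-named over het-named) was 0.17 (0.13 to 0.20), and it was 0.20 over all genes and 0.20 in the larger lincRNA sources. The ratio was above 0 in 186 genes and below 0 in 23, against 3941 and 611 of the 4552 genes of any type with at least 200 reads. This direction rests on the total used for scaling: it was above 0 in 155 genes with reads of 24 to 32 nt as the total, in 69 with miRNA reads and in 86 with the median gene. No gene of the set reached a log2 ratio of 1 (0.022% of all genes) or -1 (0.33% of all genes, and 2 of the 29 larger lincRNA sources). The log2 range was -0.53 to 0.68. As whole testes were used, fewer cells of a type and less RNA per cell cannot be told apart.

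Relative to the median gene, 8 genes (3.83%) were higher in the KO-named table by at least 0.3 on the log2 scale, against 4.86% of all genes, and 16 (7.66%) were lower by as much, against 6.11% of all genes. Both shares were near the background. Gm49654 had 536 KO-named and 386 het-named reads, a log2 ratio of 0.68, which as a plain ratio of RPM is 1.60 (1.40 to 1.83). Gm16195 and Gm45571, a family with 97.4% and 97.3% first U, had 506.6 and 490.1 KO-named reads against 367.8 and 355.7 het-named reads. The log2 ratio was 0.67 in both. Their most frequent length was 25 nt. Reads of 26 to 28 nt were 201.1 of 874.5 in Gm16195 and 187.2 of 845.7 in Gm45571. Among reads of 26 to 31 nt alone they made up 91.8% and 91.5%. Gm10451 had 232.5 KO-named and 176.1 het-named reads and a log2 ratio of 0.61. 4732487G21Rik had 126 KO-named and 96 het-named reads and a log2 ratio of 0.60, and Rmrp had a log2 ratio of 0.59.

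The lowest ratios belonged to Snhg12, a snoRNA host gene with 114 KO-named and 190 het-named reads (log2 ratio -0.53, plain ratio 0.693, 0.544 to 0.878), and to Malat1 with 235.0 KO-named and 387.6 het-named reads (log2 ratio -0.51, plain ratio 0.700, 0.593 to 0.825). Both had under 50% first U, and Snhg12 held 4 snoRNA genes. Gm47015 (127.4 KO-named and 175.9 het-named reads) and 1700048O20Rik (104.7 KO-named and 144.5 het-named reads) followed at -0.26, and 2310039L15Rik (315.8 KO-named and 425.1 het-named reads) at -0.22. Gm12480 and Gm48924, a family, were at -0.12 and -0.14. Across the 209 genes the log2 ratio had a Pearson correlation of 0.06 and a Spearman correlation of 0.19 with the first-U share, and of 0.21 and 0.21 with the 26 to 28 nt share. The genes share the libraries, and many share reads, so these values describe the set only.

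**Figure D5:**
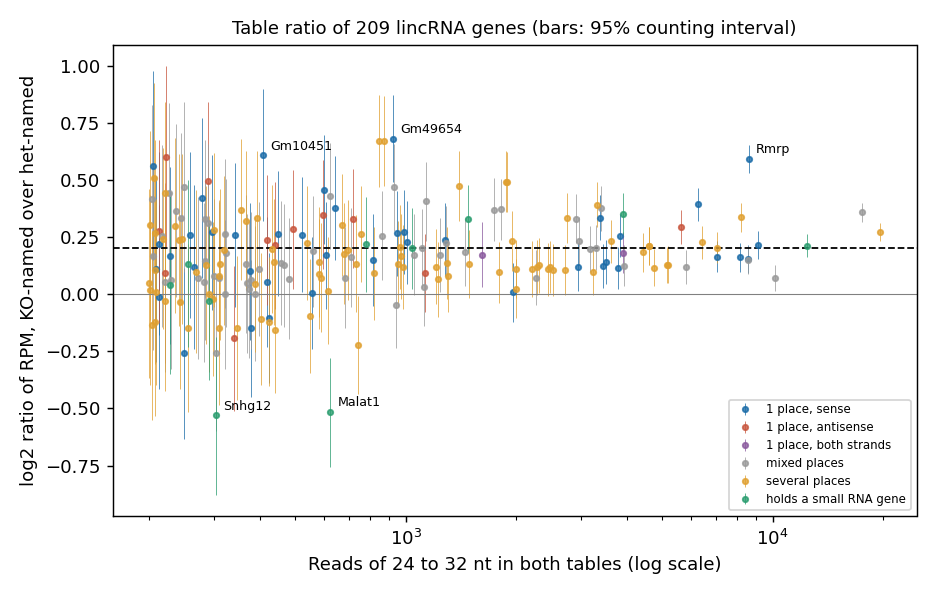
Log2 ratio of KO-named to het-named RPM (y axis, nothing added to the counts) against reads of 24 to 32 nt in both tables (x axis, log scale), 1 point per gene with its 95% counting interval and colours for the kinds of gene. The dashed line is the median gene at 0.20 and the grey line 0. The 12 genes with most reads lie between 0.07 and 0.59, with Rmrp the highest.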

How the data were processed

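Per the labels' protocols, gel-purified RNA of 15 to 40 nt was made into libraries with the TruSeq Small RNA kit, which keeps the strand. The deposited tables give raw counts of reads per distinct sequence, unscaled whole numbers for sequences of 18 to 32 nt. The authors' trimming and alignment: not given in the sources used here.

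Sequences were matched with 0 mismatches to both strands of GENCODE M21 transcripts (bwa 0.7.19) and projected to GRCm38. Without a genome sequence, places outside annotated transcripts were not seen. A read counted 1 over its number of places, and a read where 2 genes overlap counted for each. Of all sequences, 102 with over 2000 matches were left out. Log2 ratios divide KO-named by het-named RPM, after adding 0.5 reads to each count. Shares carry exact Clopper-Pearson intervals and ratios conditional binomial intervals at 95%, and medians the order-statistic interval over genes. As a floor, 3 reads equal 0.0552 KO-named and 0.0478 het-named RPM. Of 2000 simulated reads, cut without errors from the lincRNA transcripts themselves, 99.95% had their true start among their matches. Other matches of the same read were allowed, so the sharing of reads among places was not tested. The software was pandas 2.3.3, numpy 2.4.6 and scipy 1.17.1 under Python 3.11.15, with figures by matplotlib 3.10.9.

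The genes, lists and limits were chosen with earlier results of these data known. The rule named, among the 209 genes, the 12 with most reads, the 5 highest and 5 lowest log2 ratios, the 3 extremes of antisense share, first-U share, length share and share at 1 start, the 3 nearest each limit, and members of a list of well-known long noncoding RNAs. Other genes named as examples of strand, evenness, families or overlaps were chosen after their values were seen. The alternatives were 1-place reads, distinct sequences, other minimums, lengths and scalings, and leaving out genes that hold small RNA genes or overlap others.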

Additional observations from a re-analysis of the deposited data

How the results depend on the processing

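With reads of 1 place alone 94 genes were left in place of 209, all of them among the 209, and the medians were 84.6% first U, 98.7% sense and 49.8% of 26 to 28 nt. When each distinct sequence counted once, the medians were a log2 ratio of 0.0883, 61.0% first U, 50.1% of 26 to 28 nt and 80.9 starts among 100. A minimum of 1000 reads gave 38.9% of 26 to 28 nt, and starts drawn from 200 reads in place of 100 numbered 66.4. The median log2 ratio was 0.0813 when scaled to reads of 24 to 32 nt, -0.0688 when scaled to miRNA reads and -0.0360 when scaled to the median gene. These scalings moved every gene by -0.08, -0.23 and -0.20, so the sign of the median is set by the total used. Reads of 26 to 32 nt, and leaving out genes that hold small RNA genes, overlap another gene's exons or have at least 50% of reads at a place of another gene (the last chosen after seeing the data), moved the values by less than the intervals or spread allowed. The number of genes at or past a log2 ratio of 1 in size was 0 under every alternative run. No paired analysis was possible because there was 1 library per table.

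Limits: there were no replicates, both tables stand under 1 sample, and variation between animals is unknown. At 200 reads a share of 80% carries a counting interval of several points, so genes near the lower limit are described less firmly than those with 1000 reads or more. Shared reads cannot be given to 1 copy.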

Other observations

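Short reads of 18 to 23 nt were few in most of these genes. In the 34 sense, U-led genes their number was a median of 0.0466 of that of reads of 24 to 32 nt, with a range of 0.00360 to 0.116, and in the 12 antisense genes a median of 0.0496. The snoRNA host Snhg12 had more short than long reads, 565 KO-named and 531 het-named short ones against 114 KO-named and 190 het-named long ones. Malat1 had 205.9 KO-named and 387.7 het-named short reads.

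The annotated start of 8 of the 34 sense, U-led genes (23.5%) lay within 1000 nt of the start of a gene on the other strand, pointing away from it. Over all 5854 lincRNA genes this was so for 372 (6.35%), over the 209 genes for 17 (8.13%) and for 3 of the 29 larger lincRNA sources. The partners included Bclaf1 at 175 nt from 4933406P04Rik, Rfc5 at 92 nt from Gm15728, Hist1h4h at 107 nt from Gm11335 and Mapk6 at 179 nt from 4933433G15Rik. The genes were grouped by their reads, so these counts are a description.

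The letters TAACGG, the core bound by MYB factors, of which A-MYB is known to act on piRNA precursor genes of mouse spermatocytes, were searched on both strands of RefSeq promoters (GRCm38.p6, 250 bases before to 50 after the start). They stood in 2 of 72 promoters of the set (2.78%), in 4 of 17 of the larger lincRNA sources (23.5%) and in 3.15% of all 27025 promoters. A match is no evidence of a bound site, and a missing match says only that these letters are not in the window.

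Of the 209 genes, 4 lay within 50 kb of a larger lincRNA source, and the share over all lincRNA genes was not computed. They were Gm49795 beside Gm49794, Gm6567 at 22383 nt from 4933435G04Rik, CT025671.1 at 32129 nt from CT025671.4 and AC140207.3 at 35060 nt from AC140207.2. Of the well-known long noncoding RNAs of type lincRNA, H19 had 24 reads, Meg3 11.1 and Xist 9.11, all under the limit of 200.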
